A study of Danio rerio with 4 samples.

Results

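The or111 genes are a subfamily of the main olfactory bulb type odorant receptors (ORs) of zebrafish. The account covers the 10 listed members, or111-1 to or111-8, or111-10 and or111-11, out of 29029 genes in the files. They were taken by name, with earlier results of these data known. An 11th gene of the subfamily, or111-9, is also in the files but not on the list. It had no read in any library, and its values are given beside the others. RNA-seq was done on 4 libraries of olfactory sensory neurons (OSNs), with 2 each for the OMP and TRPC2 classes. All came from embryos of the Tubingen/TLF strain at 48 hpf (hours post fertilization), whose olfactory epithelia were dissected, dissociated with trypsin and sorted by fluorescence. OMP cells were sorted as RFP only, from the OMP:RFP transgene, in which regulatory sequence of the olfactory marker protein gene drives RFP in ciliated OSNs. TRPC2 cells were sorted as Venus only, from the TRPC2:venus transgene, in which regulatory sequence of a channel gene drives Venus in microvillous OSNs. Each library was made from a pool of sorted cells. RNA of the OMP cells was amplified through 1 round of in vitro transcription and RNA of the TRPC2 cells through 2 rounds. The TRPC2 pools also held fewer cells, so class, cell number and amplification cannot be told apart.

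An OR is a receptor with a membrane-spanning core that sits on the cilia of an OSN and is activated by odorants. A ciliated OSN passes the signal on through a G protein and cyclic AMP, whereas a microvillous OSN mostly uses V2R type receptors and the TRPC2 channel. A mature OSN is thought to express a single OR out of the whole repertoire, so the RNA of a pool of OSNs adds up many neurons with different receptors. In bulk RNA, fewer neurons choosing a receptor and less RNA of it per neuron cannot be told apart. The study followed the or111 genes by in situ hybridization a day later in development. It counted there the neurons that express selected ORs, or111 genes among them. These counts are not set against the levels here. The study also traced the axons of OSNs that choose or111 genes. No ligand is given here for any member.

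The libraries held 68098416 and 84599818 gene reads in OMP and 49483362 and 60189797 in TRPC2. A read was counted for 118 of 142 OR genes in each OMP library, and for 29 and 36 in the TRPC2 libraries. The labels were checked with ompb and ompa, genes of the olfactory marker protein. The OMP levels of ompb, 185 and 218 RPM (reads per 1000000 reads of a library's total), stood against 0.24 and 6.95 RPM in TRPC2. Those of ompa were 55.3 and 96.4 RPM, against 17.3 and 0.44 RPM in TRPC2, so ompa was also read in TRPC2 library 1. The summed level of 6 ciliated OSN markers was 488 and 609 RPM in OMP and 56.5 and 50.9 RPM in TRPC2, with none at 0 reads in either class. Of 5 microvillous OSN markers none was at 0 in OMP either, and their sum was 694 and 653 RPM there and 2296 and 1653 RPM in TRPC2. Of the TRPC2 sum, s100z alone gave 1482 and 993 RPM. For s100z, trpc2b and gnao1b both TRPC2 libraries were above both OMP libraries, whereas for gnao1a the classes overlapped. The channel gene trpc2a had 1.44 and 1.56 RPM in OMP, against 11.4 and 0.21 RPM in TRPC2. In TRPC2 library 2 it was thus below both OMP libraries. Red blood cell genes made up 1.69% of gene reads in OMP library 1 and 14.1% in library 2. In TRPC2 they summed to 0.29 and 5.93 RPM, and 6 of the 7 genes had no read. The 9 skin and periderm genes summed to 4063 and 6063 RPM in OMP and to 1543 and 894 RPM in TRPC2. The 7 neuron genes summed to 2565 and 1634 RPM in OMP and to 2739 and 5790 RPM in TRPC2. The part of other cells in the or111 levels was not tested.

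All 11 or111 genes matched RefSeq entries on chromosome 15 of the GRCz12tu assembly, where they are named or42. The authors' files used GRCz10, so only the order of the genes is taken from RefSeq. The or111 genes stand next to each other there, in the order of their numbers, with only a pseudogene between or111-2 and or111-3. On one side lies or119-2 and on the other the or103 genes. RefSeq divides the or111 genes into or42c (or111-5, or111-6, or111-7, or111-10 and or111-11), or42d (or111-3, or111-4 and or111-9) and or42e (or111-1, or111-2 and or111-8). These 3 groups are interleaved along the cluster.

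In OMP OSNs the or111 genes separated into 8 members with a mean above 10 RPM and 2 members below 1 RPM. or111-11, at the far end of the cluster, was read most in both OMP libraries. The 8 were or111-1 to or111-7 and or111-11, and each was above 8 RPM in each OMP library. The 2 others, or111-8 and or111-10, flank or111-9, so that 3 adjacent genes of the cluster were at or near 0. Levels are the deposited RPM, which are not divided by gene length. They order the members by reads, which need not be the order of transcripts.

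**Figure D1:**
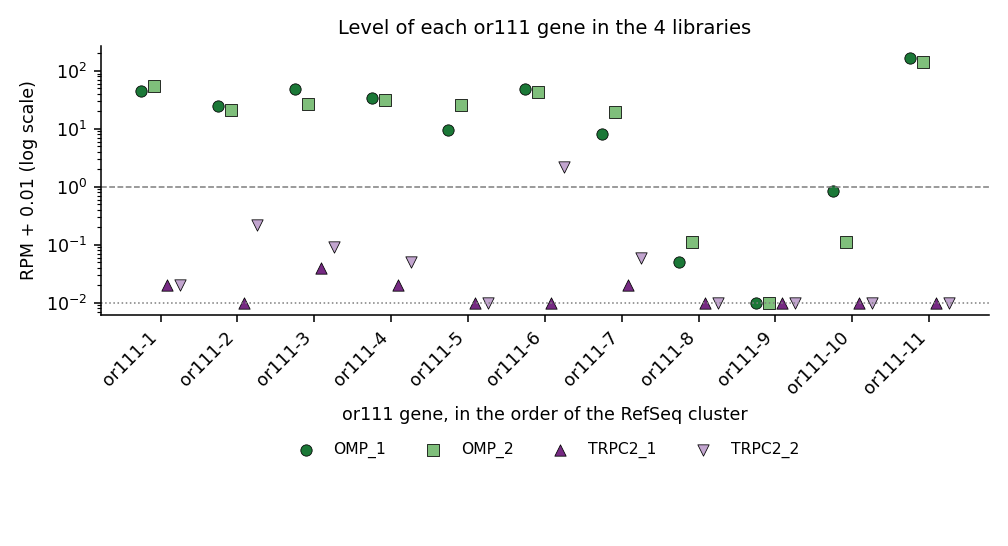
Deposited RPM plus 0.01 of each or111 gene (y axis, log scale) in the 4 libraries, with genes on the x axis in cluster order; the dashed line marks 1 RPM and the dotted line 0 RPM. The 8 genes or111-1 to or111-7 and or111-11 lie between 8.04 and 165 RPM in OMP, or111-8 to or111-10 lie below 1 RPM, and the only TRPC2 value above 1 RPM is or111-6 in library 2.

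The OMP libraries held or111-11 at 165 and 143 RPM, while neither TRPC2 library had a read of it. Its mean in OMP was 154 ± 15.8 RPM (SD, n = 2), which placed it 2nd of the 142 OR genes. The OR just above it was or132-5, at 161 ± 18.0 RPM (SD, n = 2), and the ranges of the 2 genes overlapped. In OMP library 1 or111-11 was the higher of the pair, and in library 2 or132-5 was. The OR just below was or112-1, at 89.6 ± 28.2 RPM (SD, n = 2), and its 2 libraries were both below those of or111-11.

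or111-1, the first gene of the cluster, reached 45.4 and 54.0 RPM in OMP, against 0.01 RPM, or 1 read, in each TRPC2 library. or111-6 was at 48.5 and 42.7 RPM in OMP, with no read in TRPC2 library 1 and 2.16 RPM in TRPC2 library 2. or111-3 reached 48.9 and 27.3 RPM in OMP, against 0.03 and 0.08 RPM in TRPC2. The OMP ranges of these 3 genes overlapped, and each of the 3 had both OMP libraries above both TRPC2 libraries. Their means in OMP were 49.7 ± 6.06, 45.6 ± 4.11 and 38.1 ± 15.3 RPM (SD, n = 2), in the order named.

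or111-4 differed least between the OMP libraries in deposited RPM (over gene totals or111-1 did), with 33.5 and 31.8 RPM in OMP, against 0.01 and 0.04 RPM in TRPC2. Its neighbour in the order of levels was or111-2, with 24.9 and 20.8 RPM in OMP, against 0 and 0.21 RPM in TRPC2. The OMP ranges of or111-4 and or111-2 did not overlap, with means of 32.6 ± 1.17 and 22.9 ± 2.88 RPM (SD, n = 2).

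or111-5 and or111-7 were the 2 members of intermediate level that differed most between the OMP libraries. or111-5 was read at 9.37 RPM in OMP library 1 and at 26.3 RPM in library 2, with 0 reads in TRPC2. or111-7, a receptor for which the study made a transgenic line that labels the choosing OSNs, reached 8.04 and 19.3 RPM in OMP, against 0.01 and 0.05 RPM in TRPC2. Both were higher in library 2, and their OMP ranges overlapped. The means were 17.8 ± 11.9 and 13.6 ± 7.93 RPM (SD, n = 2).

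or111-10 was counted 90 times in OMP library 1 and 11 times in library 2, or 0.83 and 0.10 RPM. or111-8 was counted 4 and 11 times, or 0.04 and 0.10 RPM. Neither had a read in TRPC2, and their OMP ranges overlapped. or111-9 had no read in any of the 4 libraries, and 3 reads, the limit that a count of 0 allows, correspond to 0.0278 and 0.0269 RPM in the OMP libraries. This limit covers counting error only. How reads that map to several genes were treated is not given in the sources used, so the division of reads among close members is uncertain.

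In the order of mean OMP level, or111-11 was followed by or111-1, or111-6, or111-3, or111-4, or111-2, or111-5, or111-7, or111-10 and or111-8. Of the 9 pairs of neighbours in this order, 3 had ranges that did not overlap. These were or111-11 over or111-1, a ratio of 3.10, or111-4 over or111-2, a ratio of 1.43, and or111-7 over or111-10, a ratio of 29.3. The ranges of the other 6 pairs overlapped. Among these, or111-5 was above or111-7 in both libraries, and no other pair kept its order in both. The differences were not tested. or111-3 moved most in the order, from 2nd of the members in OMP library 1 to 5th in library 2.

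Summed over the 10 members, the or111 genes were at 385 and 365 RPM in the OMP libraries, a mean of 375 ± 13.8 RPM (SD, n = 2). The sum came from 41576 and 40680 reads. Divided by gene reads without red blood cell genes, it was 590 RPM. or111-11 gave 43.0% of the or111 reads in library 1 (95% Wilson interval 42.5 to 43.4%) and 39.1% in library 2 (38.7 to 39.6%). The share of or111-3 was 12.7% in library 1 and 7.47% in library 2, while that of or111-5 was 2.44% and 7.19%, and that of or111-7 was 2.09% and 5.27%. These intervals cover counting error only, since amplified reads are not independent molecules.

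**Figure D2:**
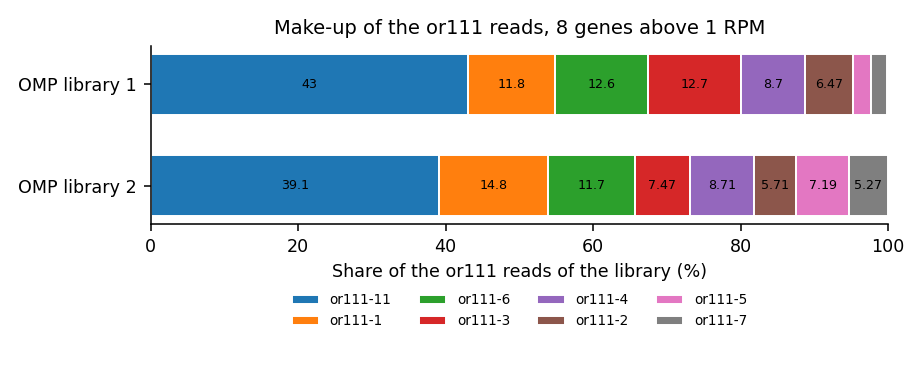
Share of the or111 reads (x axis, percent) that each of the 8 genes above 1 RPM took in each OMP library (1 bar per library, genes in order of mean level, shares above 4% printed). or111-11 is the widest segment in both bars, at 43.0% and 39.1%, while or111-5 and or111-7 are wider in library 2 and or111-3 in library 1.

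By RefSeq group, the or42c genes summed to 232 and 231 RPM in the OMP libraries, the or42d genes to 82.4 and 59.1 RPM, and the or42e genes to 70.3 and 74.9 RPM. Each group held at least 1 gene above 20 RPM and 1 gene below 1 RPM. Membership in a group therefore did not separate the 8 members above 10 RPM from the others.

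The ratio between the OMP libraries showed which members were read alike in both pools. On the log2 scale, library 2 over library 1 was -0.21 for or111-11, 0.25 for or111-1, -0.18 for or111-6, -0.26 for or111-2 and -0.073 for or111-4. These 5 members were within 1.5-fold. The ratio was -0.84 for or111-3 (95% exact counting interval -0.91 to -0.78), 1.49 for or111-5 (1.38 to 1.59) and 1.26 for or111-7 (1.14 to 1.37). It was -3.08 for or111-10 (-4.13 to -2.17), which was read 8.43-fold more in library 1. For or111-8 it was 1.42 (-0.34 to 3.52), an interval that includes 0. The interval excluded 0 for the 9 other members, but it leaves out the spread between pools of cells. Over gene totals every ratio is lower by 0.27, which turns that of or111-1 to -0.020.

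Between the OMP libraries 6 members were higher in library 1 and 4 in library 2. Of the 8 members above 1 RPM, 5 were within 1.5-fold, and the median absolute log2 ratio was 0.25. Of the 67 other OR genes above 1 RPM, 27, or 40.3%, were within 1.5-fold, and the median was 0.67. Among 7881 genes outside the ORs with a mean between 10 and 200 RPM, 82.9% were within 1.5-fold, with a median of 0.26. With its sign, the median log2 ratio was -0.13 for the 8 members and 0.23 for the 67 other ORs. These shares and medians were computed on deposited RPM alone. Ratios over gene totals are lower by 0.27, and under the TMM scaling of the class test they are higher by 0.037. The difference between the or111 genes and the other ORs was not tested.

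**Figure D3:**
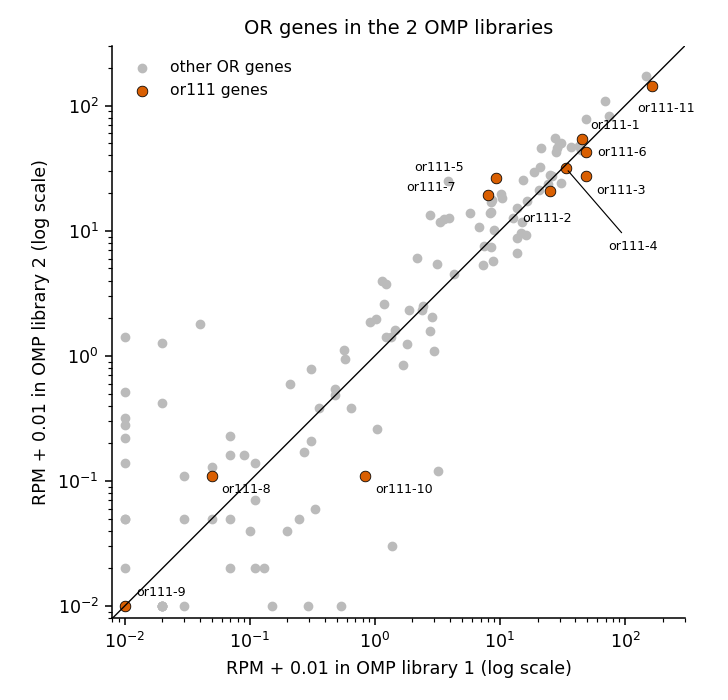
Deposited RPM plus 0.01 of every OR gene in OMP library 1 (x axis, log scale) and OMP library 2 (y axis, log scale), with or111 genes in orange, the 131 other ORs in grey and the line of equal levels. or111-11, or111-1, or111-6, or111-4 and or111-2 lie near the line, or111-5 and or111-7 above it, and or111-3 and or111-10 below it.

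Among the 36 OR subfamilies in the files, or111 had the highest summed level in OMP, and it held 25.8% of the OR level in library 1 and 19.9% in library 2. This share rests on the other ORs, which summed to 1104 RPM in library 1 and 1472 RPM in library 2. The next subfamily was or132, at 165 ± 16.6 RPM (SD, n = 2), of which or132-5 alone gave 97.7%. In or111 the highest gene gave 41.1% of the summed RPM, and the members without or111-11 still summed to 221 RPM. The median over the 11 or111 genes was 22.9 RPM, the highest among the 12 subfamilies with 5 or more genes, followed by 11.4 RPM over the 8 genes of or125. Of the 131 other ORs, 67, or 51.1%, were above 1 RPM and 36 above 10 RPM, against 8 of the 10 members at either level.

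**Figure D4:**
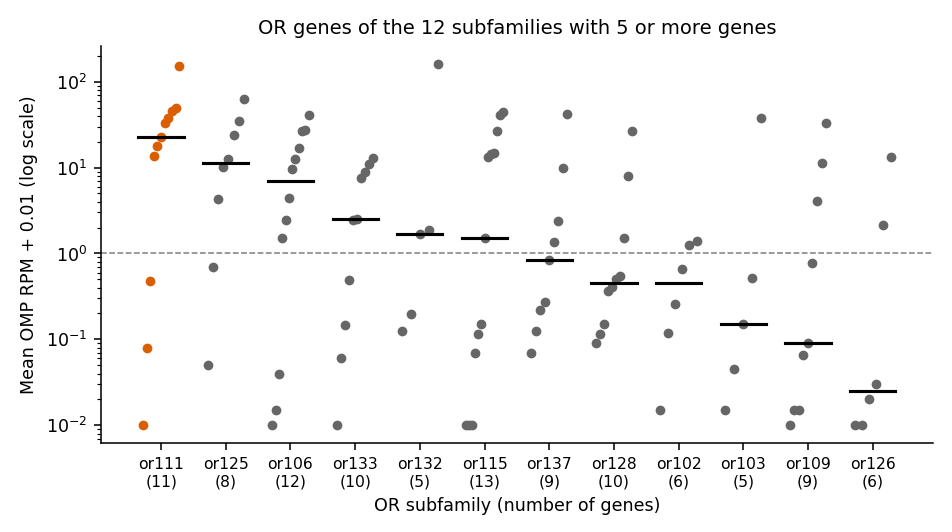
Mean deposited RPM plus 0.01 over the 2 OMP libraries (y axis, log scale) for each gene (point) of the 12 OR subfamilies with 5 or more genes (x axis, number of genes in parentheses), with the median of each subfamily as a bar and 1 RPM as a dashed line. The or111 median is 22.9 RPM and 8 of its 11 genes lie above 10 RPM, whereas in or132 a single gene does.

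The genes beside the cluster, picked with their values known, were read at other levels. or119-2 had 13.7 and 15.2 RPM in OMP. On the side of or111-11, the nearest gene or103-1 was at 0.64 and 0.37 RPM and the next, or103-5, at 28.6 and 46.2 RPM. High and low genes thus stood side by side within the or111 cluster and just outside it.

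Compared with TRPC2, the or111 genes were almost wholly OMP reads. Their sum was 6 reads, or 0.06 RPM, in TRPC2 library 1 and 215 reads, or 2.55 RPM, in TRPC2 library 2. Of the 10 members, 4 had no read in TRPC2, and 6 had at least 1. Of the 131 other ORs, 93 had no read there. In library 2, or111-6 gave 182 of the 215 reads (exact 95% Poisson interval 157 to 210 reads), 84.7% of the or111 reads there. This interval covers counting error only, since amplified reads are not independent molecules. The other members summed to 0.39 RPM in that library. In the same library or111-6 was the 11th highest OR, whereas in TRPC2 library 1 it had no read. or111-11, the highest member in OMP, had no read in either library. The 131 other ORs summed to 161 and 117 RPM in TRPC2, of which or112-1 had 95.1 and 33.2 RPM. The or111 genes were 0.0374% and 2.14% of the OR level in TRPC2.

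For 10 of 10 members the lower OMP library was above the higher TRPC2 library. This held for 89 of the 131 other ORs, or 67.9%, and for 53.3% of all 29029 genes. The sets are unlike, since the members leave out or111-9, which had no read and cannot meet this. The 131 other ORs keep genes without an OMP read, such as or114-1. The ratio of OMP to TRPC2 reads, scaled by library totals, was 4295 for or111-1 (95% exact counting interval 1189 to 35466, from 2 TRPC2 reads). It was 1409 for or111-4 (550 to 5172), 655 for or111-3 (356 to 1366) and 474 for or111-7 (203 to 1461). or111-2, with 18 reads in TRPC2 library 2 alone, gave 219 (139 to 370). These ratios pool the TRPC2 libraries, and most moved beyond 1.5-fold with the library used. Against TRPC2 library 1 alone the OMP mean was 2885-fold higher for or111-4, 1122-fold for or111-3, 1206-fold for or111-7 and at least 674-fold for or111-2. Against library 2 alone it was 917-fold higher for or111-4, 459-fold for or111-3, 288-fold for or111-7 and 107-fold for or111-2. For or111-1 the libraries gave 4390-fold and 4188-fold. or111-6 had the lowest ratio of the 8 members above 1 RPM, at 43.2 (37.3 to 50.3). Against TRPC2 library 2 alone the OMP mean of or111-6 was 21.1-fold higher, and against library 1 alone, which had no read, at least 1343-fold higher. For members without a TRPC2 read the ratio was computed against 3 reads in each TRPC2 library. OMP was at least 4432.5-fold higher for or111-11, at least 512-fold for or111-5, at least 13.4-fold for or111-10 and at least 2.01-fold for or111-8. The lower bounds of or111-10 and or111-8 rest on 101 and 15 OMP reads. All these bounds cover counting error only. They leave out the spread between TRPC2 libraries, in which or111-6 had 0 and 182 reads, so they are no minimum for the class.

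**Figure D5:**
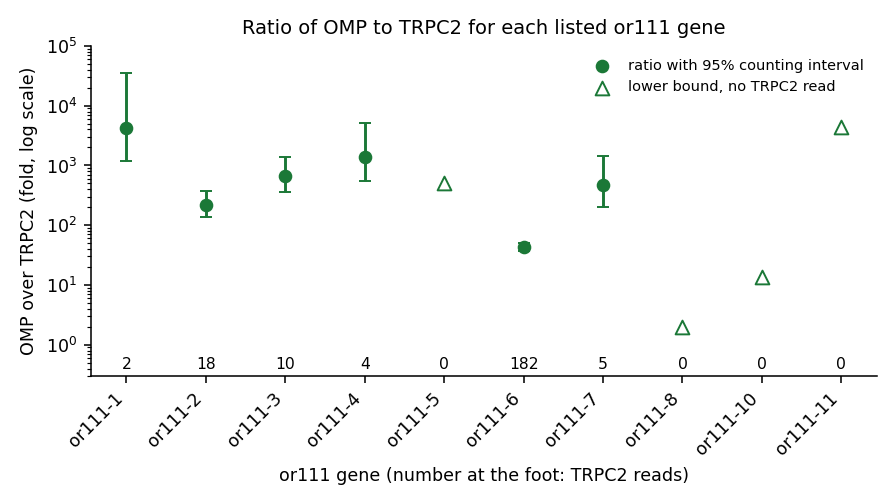
Ratio of OMP to TRPC2 reads, scaled by library totals (y axis, log scale) for each listed or111 gene (x axis), with 95% exact counting intervals as bars, lower bounds against 3 reads per library as open triangles, and the number of TRPC2 reads at the foot. or111-6, with 182 TRPC2 reads, has a ratio of 43.2, below those of the other members with a TRPC2 read.

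edgeR's quasi-likelihood test, run on the counts of all genes, called 0 of 21026 genes, or 0%, at an adjusted p under 0.05. Of the members, 8 were tested and 0 passed. or111-8 and or111-10 had too few reads. The 8 tested members owed their place among the tested genes to OMP reads alone, so the filter on low counts fixed their direction. Their adjusted p was 0.072 for or111-1, or111-3, or111-4, or111-5, or111-7 and or111-11, 0.098 for or111-2 and 0.259 for or111-6. The adjustment gave the first 6 the same value. Their unadjusted p in the edgeR test ran from 2.9e-05 for or111-1 to 0.0035 for or111-7. An unadjusted p under 0.05 with higher OMP reads was found for 7 of the 8, all but or111-6, where 23.3% of all tested genes had one. Since the filter fixed the members' direction, this count and the counts by other tools are given as a description, and nothing is read from them against the share of all genes. The fitted log2 fold change, OMP over TRPC2, was 11.18 for or111-1 (standard error 0.70), 9.60 for or111-4 (0.97), 8.53 for or111-3 (0.93), 8.03 for or111-7 (1.48), 6.91 for or111-2 (2.07) and 4.57 for or111-6 (2.25). The median over all tested genes was 0.49. For or111-5 and or111-11, with no TRPC2 read, the lower bounds above take the place of a fitted value.

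Other tools put members past the threshold. DESeq2 called 7 of the 8 higher in OMP, where it called 12.9% of all tested genes higher in OMP. On log2(RPM + 0.5), limma called 8 of 8 higher in OMP, where it called 23.5% of all tested genes higher in OMP. On log2(RPM + 0.1) it called 7 higher in OMP, where that share was 25.4%. edgeR itself called 4 members without OMP library 1 and 4 without OMP library 2, where 0.582% and 0.272% of all tested genes were called higher in OMP. It called 8 without TRPC2 library 1 and 8 without TRPC2 library 2, where those shares were 32.6% and 34.9%. The fitted log2 fold change of or111-6 depended on which TRPC2 library was kept. It was 15.01 without library 2 and 3.44 without library 1, and edgeR called it in both fits. That of or111-2 was 14.02 and 5.77 in the same fits. Without library 2 neither gene has a TRPC2 read, so 15.01 and 14.02 depend on the prior count of the fit and are no bounds. These fits give the single TRPC2 library the same spread as the OMP pair.

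The ORs with the most similar pattern were sought by Euclidean distance of log2(RPM + 0.5) over the 4 libraries, among the 131 ORs outside or111. or132-5 was nearest to or111-11, at a distance of 0.40, and had 148 and 173 RPM in OMP. or110-2 followed at 1.39 and or115-11 at 2.63. Nearest to or111-7 was or126-1, at 0.21, with 8.57 and 17.6 RPM in OMP and no TRPC2 read. or106-1 at 0.24 and or116-1 at 0.38 came next. These 3 were closer to or111-7 than any member of its own subfamily was, the nearest being or111-5 at 0.50. Far more ORs were searched outside or111 (131) than within it, so a nearer match outside is no trait of or111-7. The distances are over 4 libraries only and are given as a description.

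Among genes that carry an OR's signal in ciliated OSNs, both OMP libraries were above both TRPC2 ones for 12 of 16, as they were for 53.3% of all genes. The list includes ompa and ompb, genes of the marker protein whose promoter drove the sort. Of 23 listed genes of the cyclic AMP pathway, 16 were in the files and 13 were tested, of which 0 passed the adjusted threshold. An unadjusted p under 0.05 in the edgeR test with higher OMP reads was found for 7 of the 13, and for 23.3% of all tested genes. The 7 include ompb and cngb1a, and cngb1a, without a TRPC2 read, passed the filter on low counts through OMP reads alone. Nothing is therefore read from this count against the share of all genes. An unadjusted p under 0.05 with higher TRPC2 reads was found for 1, and the share of all genes in that direction was not counted. gnal, the G protein subunit that couples ORs to adenylyl cyclase, had 118 and 102 RPM in OMP, against 6.65 and 12.04 RPM in TRPC2. stoml3a, whose mouse counterpart lies in OSN cilia, had 16.5 and 17.2 RPM in OMP, against 0.49 and 0.52 RPM in TRPC2. cngb1a, a subunit of a cyclic nucleotide gated channel, was at 0.30 and 0.27 RPM in OMP with no TRPC2 read. slc24a4a, a sodium-calcium exchanger, had 2.30 and 1.27 RPM in OMP, against 13.7 and 26.4 RPM in TRPC2.

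Factors that act in OR choice in the mouse were read in both classes. Of 15 listed genes, 13 were in the files and tested, 0 passed the adjusted threshold, and 1 in each direction had an unadjusted p under 0.05, where 23.3% of all tested genes had one with higher OMP reads. The first was atf5a, a transcription factor, with 231 and 443 RPM in OMP, against 36.4 and 22.6 RPM in TRPC2. The second was ebf3a, also a transcription factor, with 397 and 287 RPM in OMP, against 723 and 1006 RPM in TRPC2. The LIM homeobox gene lhx2a had 47.1 and 37.9 RPM in OMP, against 44.7 and 40.1 RPM in TRPC2. Its copy lhx2b had 62.3 and 39.6 RPM in OMP, against 49.6 and 55.4 RPM in TRPC2. For both genes the classes overlapped.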

How the data were processed

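Reads of 4 libraries were mapped by the authors to GRCz10 with STAR and counted per gene with VERSE. The sources used here name no version or annotation, nor how strand and multiply mapping reads were handled. Counts were deposited as whole reads for each gene symbol. The deposited RPM divide them by a library total of which 56.0% to 75.9% is gene reads. OR genes were taken by symbol.

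The comparison of classes used edgeR 4.0.16 in R 4.3.3 (quasi-likelihood F test, TMM scaling, default filterByExpr) with no covariate beside class, and p-values were adjusted over all genes by Benjamini-Hochberg. Standard errors are the fold change over the root of F. The fit was also run on simulated counts with planted changes. These did not copy the pattern of the members, with few or no TRPC2 reads, so nothing is drawn from that run. An exact two-sided permutation test of 2 against 2 libraries cannot go below 0.333. The labels call the libraries biological replicates, and p-values measure only the spread between them. Alternatives were DESeq2 1.42.0, limma 3.58.1, other scalings and filters, leaving out each library, and a block for the replicate number. The members, lists and tests were chosen with earlier results of these data known. Genes named are the or111 genes, ORs nearest to or111-11 and or111-7 in pattern, ORs next to the 2 highest members in level, and, from each list, the 4 with the smallest p at most. Marker genes of the OSN classes are given besides, the channel gene trpc2a among them.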

Additional observations from a re-analysis of the deposited data

How the results depend on the processing

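At an adjusted p under 0.05, 0 or111 genes were called by edgeR under library totals only, no filter, at least 100 counts in 2 libraries, or size factors from DESeq2. In each of these fits 0 genes at all were called in either direction, of 16051 to 26794 tested. DESeq2 called 7 (12.9% of all tested genes higher in OMP), limma 8 with a pseudocount of 0.5 (23.5%) and 7 with 0.1 (25.4%), and edgeR with the replicate block 7, where 1.56% of all genes were called higher in OMP. The libraries share only the numbers 1 and 2, and deviations of same-numbered libraries correlated at 0.00869. With any 1 library left out, 4 to 8 genes were called, with 4 without either OMP library, and 0.272% to 34.9% of all genes higher in OMP. The median log2 fold change of all genes was 1.13 under library totals only and 0.36 under size factors from DESeq2. The cause was not tested.

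The 8 members above 1 RPM stayed 8 at 0.5 and 2 RPM, in both libraries, and under the other scalings. The sum of the 10 members in OMP was 546 RPM over gene totals and 590 RPM once red blood cell genes were also left out of the total, both of which are smaller totals by construction. It was 365 to 385 RPM with 1 OMP library left out. Few or no reads were counted for or111-8, or111-9 and or111-10, which limits what can be said of their levels. The cause of the low counts was not tested.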
